A study of Mus musculus with 14 samples.

Results

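Regulators of G protein signalling (RGS) were followed by the 6 genes Rgs1, Rgs2, Rgs10, Rgs14, Rgs18 and Rgs19, taken by symbol from the 14329 genes with values in sorted spinal cord microglia, and all 6 had values in each of 14 libraries. They are not every RGS gene measured, since Rgs3, Rgs11 and Rgs12 also have values and are described with the rest of the pathway. The libraries are bulk RNA-seq of microglia gated as CD45low CD11b+ CX3CR1+, 2000 cells per sample, from the dorsal spinal cord of 6-month-old mice at day 5 after serum transfer (ST). K/BxN serum is arthritogenic and gives joint inflammation with pain hypersensitivity, and the comparison asks how microglia respond to it in wild-type (WT) mice and in TASTPM mice, a model of Alzheimer's disease. TASTPM mice are heterozygous double transgenics that carry human APP with the Swedish mutation, with both transgenes under the murine Thy-1 promoter, which is used for expression in neurons. WT mice were of the C57BL/6 background to which the transgenic line was backcrossed. The 4 groups are WT Control ST (3 libraries), WT K/BxN ST (4), TASTPM Control ST (3) and TASTPM K/BxN ST (4), and the control serum was pooled from KRN/C57 mice. Male and female mice were used in the study, and the sex behind each library was not analysed here. The study's methods count individual mice as replicates, and the labels do not tie a library to its mouse.

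G protein-coupled receptors switch on heterotrimeric G proteins by loading the Gα subunit with GTP, which frees Gα and Gβγ to act on adenylyl cyclases, phospholipase C and phosphoinositide 3-kinase. RGS proteins bind the active Gα through their RGS domain and speed the hydrolysis of GTP, which shortens the signal. Microglia sense ATP and ADP, chemokines and complement fragments through many receptors of this type, most of them coupled to Gαi. Among the members, Rgs2 acts mainly on Gαq, Rgs10 is a short RGS protein long known from microglia, where it acts on Gαi and restrains inflammatory gene expression, and Rgs1 and Rgs18 belong to the same subfamily as Rgs2 and are best known from lymphocytes and from platelets and other blood cells, respectively. Rgs19, also called GAIP, acts on Gαi at membranes and vesicles, and Rgs14 carries a GoLoco motif and Ras-binding domains beside its RGS domain.

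In GRCm39, the genome build of the counts, Rgs2 (chr1:143875076-143879899), Rgs1 (chr1:144118034-144124980) and Rgs18 (chr1:144628291-144651189) lie on the minus strand of a stretch of 0.776 Mb that holds 5 Rgs genes, of which Rgs13 and Rgs21 are not among the genes with values. Rgs10 (chr7:127975345-128020482) and Rgs19 (chr2:181330212-181335997) are on the minus strand and Rgs14 (chr13:55517258-55535857) is on the plus strand. Of the exon bases of Rgs19, 15.8% are shared with Tcea2 on the opposite strand, and 11.3% of those of Rgs2 with the predicted gene Gm41964, so reads there cannot be assigned to either gene without strand. After centring each gene on its own median, the log2 levels of the neighbours Rgs2 and Rgs1 differed by a mean absolute 0.72 over the 14 libraries, and those of Rgs2 and Rgs18 by 3.57.

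Promoter sequences of 300 bases, from 250 before to 50 after the transcription start, were taken from RefSeq on GRCm38.p6, an older build than that of the gene positions above, and matched 3 of the 6 members. They are shown for Rgs2 and Rgs10, the members with the highest levels per length of transcript and the closest pair in pattern, and for Rgs19, which departed from them where monocyte markers were high. The sequences run 5′ to 3′ on the minus strand, and capitals mark matches, on either strand, to the core of the cAMP response element (TGACGT), the GC box (GGGCGG), the TATA box (TATAAA) or the core of the PU.1 site (GGAAGT). No 2 of these letter strings overlap in the sequences printed. For Rgs19 the first of 3 RefSeq starts is given.
Rgs2 (chr1:144004100-144004399): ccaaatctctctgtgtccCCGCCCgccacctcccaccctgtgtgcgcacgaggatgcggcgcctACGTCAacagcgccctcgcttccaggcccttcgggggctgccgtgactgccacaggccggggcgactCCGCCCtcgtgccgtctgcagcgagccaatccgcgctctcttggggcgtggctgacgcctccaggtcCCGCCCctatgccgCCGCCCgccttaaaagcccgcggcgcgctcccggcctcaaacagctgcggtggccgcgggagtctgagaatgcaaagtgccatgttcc
Rgs10 (chr7:128418123-128418422): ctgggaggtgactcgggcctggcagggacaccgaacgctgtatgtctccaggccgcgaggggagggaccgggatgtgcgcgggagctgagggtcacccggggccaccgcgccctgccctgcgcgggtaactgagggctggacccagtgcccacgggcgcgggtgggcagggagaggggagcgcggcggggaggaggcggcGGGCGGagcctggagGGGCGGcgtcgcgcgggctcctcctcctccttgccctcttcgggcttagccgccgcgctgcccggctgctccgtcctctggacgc
Rgs19 (chr2:181693928-181694227): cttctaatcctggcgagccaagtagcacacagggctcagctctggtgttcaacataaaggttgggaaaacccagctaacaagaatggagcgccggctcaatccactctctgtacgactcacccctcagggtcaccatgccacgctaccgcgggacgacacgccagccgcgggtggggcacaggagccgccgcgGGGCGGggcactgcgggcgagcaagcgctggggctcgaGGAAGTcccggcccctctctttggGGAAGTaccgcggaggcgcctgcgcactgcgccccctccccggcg
The Rgs2 promoter holds 1 cAMP response element core, found in 7.51% of the 32851 promoters of this length, and 4 GC boxes, found at least once in 35.7%. The Rgs10 promoter holds 2 GC boxes and none of the other sites, while that of Rgs19 holds 1 GC box and 2 PU.1 cores, the latter found in 23.8% of promoters. None of the sequences printed holds the TATA box letters, which 13.6% of promoters hold. These matches describe letters in the windows and not binding.

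Before the results, 4 libraries have to be set apart. WT K/BxN ST replicates 1 and 2 and TASTPM K/BxN ST replicates 1 and 2 had summed levels of 10 monocyte markers of 381318 to 710603 normalized counts, against 9009 to 23356 in the other 10 libraries. Ly6c2, a surface marker of classical monocytes, was at 12898 to 29133 normalized counts in them and at 1.87 to 17.8 in the others. The 10 microglia markers, with the purinergic receptor P2ry12 among them, summed to 332236 to 792072 in these 4 libraries and to 955389 to 1279768 in the others, and all 10 were present in every library. The 9 neutrophil markers measured of 10 summed to 3527 to 213067 against 6.71 to 2753, with the defining marker Ly6g at 0 in WT K/BxN ST replicate 2 and at 439.9 to 868 in the other 3 libraries of the 4. Border macrophage markers (7 of 7 measured) summed to 1277 to 3335 against 0 to 976, and dendritic cell markers (4 of 7 measured) to 768 to 7673 against 0.838 to 224. Markers of platelets (2 of 9 measured, 270 to 626 against 309 to 982) and of lymphocytes (2 of 9 measured, 621 to 894 against 691 to 1068) did not separate these libraries. No Control ST library is among them. The gating scheme given for the sort also took Ly6C- and CCR2- cells, which would remove classical monocytes, and Ccr2 transcripts were at 8537 to 27035 normalized counts in these 4 libraries against 3.13 to 86.0. The serum differences of the members and the medians of the gene lists are given with and without the 4. Library depth was 14223015 to 20239175 reads on genes.

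Rgs10 and Rgs2 were the dominant RGS transcripts in these microglia. Per kilobase of exon, the median level over the 14 libraries was 3382 normalized counts for Rgs10 and 2994 for Rgs2, 1047 for Rgs19, 104 for Rgs1, 42.0 for Rgs14 and 0.850 for Rgs18. Rgs10 was above Rgs2 in 10 of 14 libraries, so the order of these neighbours does not hold in every library. Both Rgs2 over Rgs19 and Rgs19 over Rgs1 held in 14 of 14, with median ratios of 3.23 and 11.1. Rgs1 was above Rgs14 in 10 of 14 libraries, and the 4 where it was not are WT Control ST replicate 1 and 3 of the libraries high in monocyte markers. Rgs18 was above Rgs14 in 4 of 14, which are those high in monocyte markers. Exon lengths are unions over all annotated transcripts, so levels per kilobase are understated for genes with long, rarely used exons. By mean level, not corrected for length, Rgs2 ranked 183 and Rgs10 ranked 309 among the 14329 genes, against 917 for Rgs19, 4017 for Rgs1, 5493 for Rgs14 and 6628 for Rgs18. Across libraries the highest level was 1.68 times the lowest for Rgs19, 2.39 times for Rgs2, 3.45 times for Rgs10, 7.29 times for Rgs1 and 9.72 times for Rgs14, and Rgs18 ran from 0 to 1533 normalized counts.

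**Figure D1:**
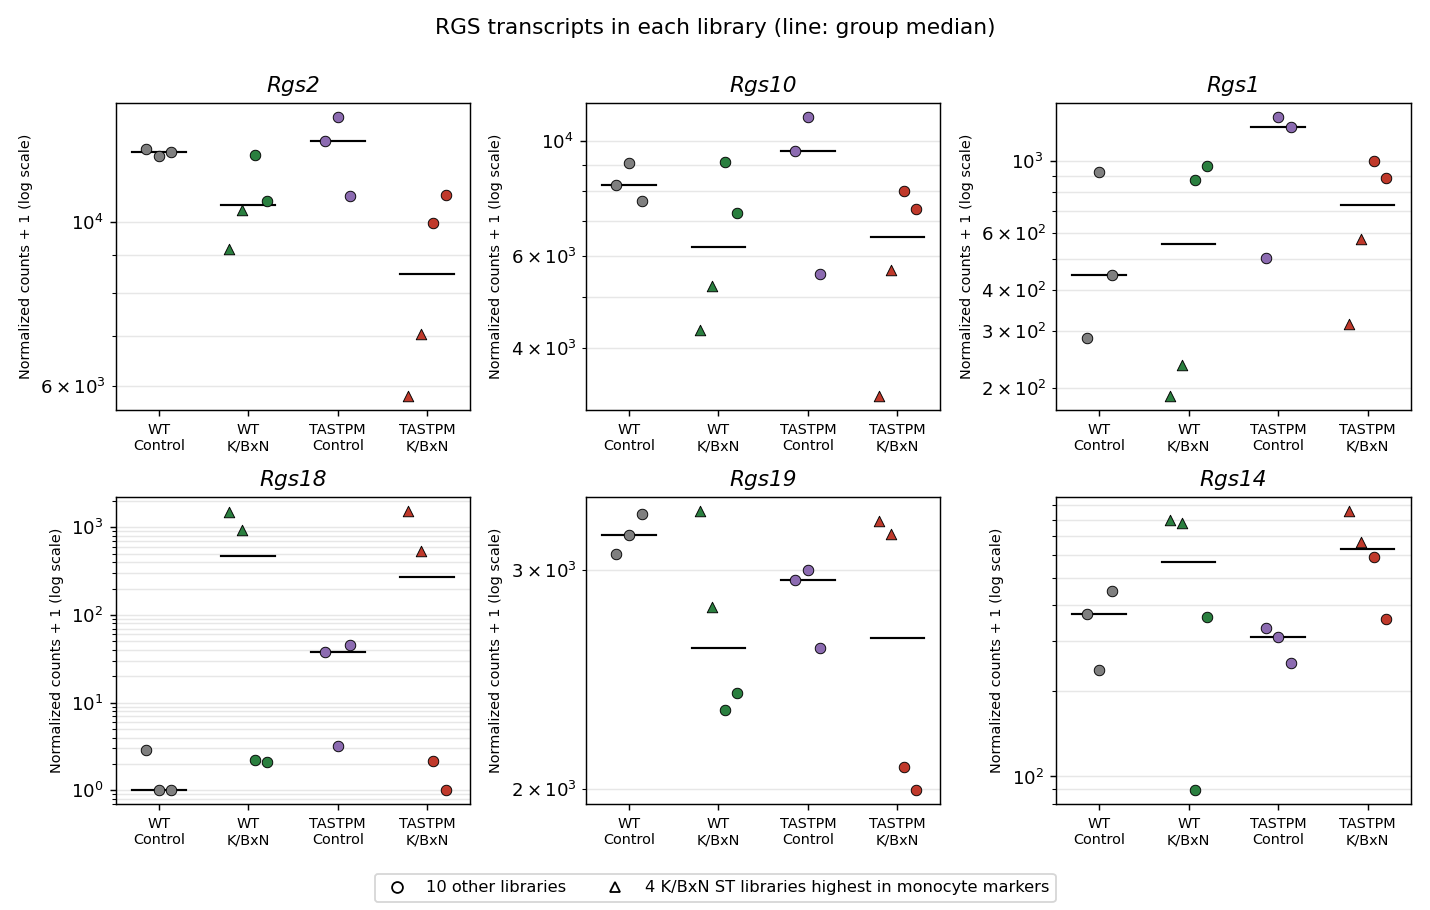
Normalized counts plus 1 (log axis, a separate scale for each gene) of the 6 RGS genes in each library by group, with the group median as a line and triangles for the 4 K/BxN ST libraries highest in monocyte markers. Rgs18 reaches 533 to 1533 in the triangles and at most 44.5 elsewhere, and Rgs14 is also highest in them, while Rgs2, Rgs10 and Rgs1 tend to the low end there.

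Rgs2, the regulator of Gαq, was the most abundant member by count and had lower levels after K/BxN ST in both genotypes, though no difference passed the test. Its normalized counts in WT Control ST were 12542, 12277 and 12419.8, and in WT K/BxN ST they were 9183, 10378, 12296 and 10673. In TASTPM Control ST they were 12839, 13842 and 10843, and in TASTPM K/BxN ST they were 5801, 7054, 9956 and 10875. The WT Control ST libraries lay close together (12413 ± 133, SD, n = 3), and the lowest values of the series belonged to the TASTPM K/BxN ST replicates 1 and 2, with the groups overlapping in both genotypes. The log2 fold change on the scale of log2(normalized count + 1) was -0.61 in TASTPM (SE 0.21, 95% interval -1.06 to -0.15, limma unadjusted p = 0.0122, adjusted p = 0.964) and -0.23 in WT (SE 0.21, adjusted p = 0.806). With all 14 libraries it was the only member with an unadjusted limma p under 0.05 in a serum comparison, where 1.60% of the 12646 genes tested passed that limit in the lower direction in TASTPM. Without the 4 libraries high in monocyte markers the differences were -0.26 in TASTPM (95% interval -0.59 to 0.08) and -0.12 in WT. In bulk samples, fewer cells of a type and less RNA per cell cannot be told apart.

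Rgs10, the microglial regulator of Gαi, followed a similar course, with 3 of the 4 libraries high in monocyte markers at its lowest levels. WT Control ST had 8213, 9072 and 7671 normalized counts and WT K/BxN ST had 4319, 5248, 9119.9 and 7268. TASTPM Control ST had 9553, 11115 and 5542 and TASTPM K/BxN ST had 3219, 5639, 7993 and 7399.7. The groups overlapped in both genotypes, and TASTPM Control ST replicate 3 was lower than 5 of the 8 K/BxN ST libraries. The log2 fold changes were -0.41 in WT (SE 0.33, limma adjusted p = 0.788) and -0.55 in TASTPM (SE 0.33, adjusted p = 0.964). Without the 4 libraries they were -0.03 (95% interval -0.59 to 0.53) and -0.12 (95% interval -0.68 to 0.44).

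Set against microglia markers rather than all reads, Rgs2 and Rgs10 did not show this dip. The summed markers were themselves lower in the 4 libraries, so a gene with steady counts rises on this ratio. How many of all genes lose a dip in this way was not computed. Per 1000 counts of the 10 microglia markers, Rgs10 stood at 6.63 to 9.69 in the 4 libraries and at 5.47 to 11.6 in the other 10, so the ranges overlapped. Rgs2 stood at 10.01 to 17.5 (median 15.1) in the 4 libraries and at 9.07 to 14.5 (median 9.98) in the others. Rgs2 and Rgs10 were also the members most alike over the 14 libraries, with a mean absolute difference of 0.21 on the log2 scale after each was centred on its own median. The genes most like Rgs2 by the same measure were Dapp1 (0.10), an adaptor downstream of phosphoinositide 3-kinase, Tubb2a (0.10), a β-tubulin, and Hpgd (0.12), which inactivates prostaglandins. Those most like Rgs10 were Pon3 (0.11), a paraoxonase, Cst3 (0.13), the cysteine protease inhibitor cystatin C, and Syngr1 (0.13), a vesicle membrane protein.

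Rgs1, the lymphocyte regulator of chemokine receptor signals, varied as much within groups as between them. WT Control ST had 283, 925 and 445 normalized counts and WT K/BxN ST had 187, 235, 869.6 and 965. TASTPM Control ST had 500.4, 1363 and 1271 and TASTPM K/BxN ST had 314, 575, 997 and 883. The highest 2 values were TASTPM Control ST libraries and the lowest 2 were WT K/BxN ST replicates 1 and 2, and all groups overlapped. The log2 fold change was -0.16 in WT (SE 0.63, limma adjusted p = 0.963) and -0.59 in TASTPM (SE 0.63, adjusted p = 0.964). In WT the direction turned to 0.91 (95% interval -0.22 to 2.04) without the 4 libraries, and in TASTPM the difference then came to -0.02. Its closest genes were Nfia (0.33), a transcription factor, and the predicted genes Gm43775 (0.35) and Gm21769 (0.37).

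Rgs18 was present in the libraries high in monocyte markers and near the detection limit in most others. WT Control ST had 1.87, 0 and 0 normalized counts and WT K/BxN ST had 1482, 927, 1.19 and 1.09. TASTPM Control ST had 36.6, 2.22 and 44.5 and TASTPM K/BxN ST had 1533, 533, 1.17 and 0. The 4 high values are the 4 libraries named above, and within K/BxN ST the other 4 libraries were each at 0 or 1 read. As 3 reads, taken as the smallest detectable number, correspond to 2.51 to 3.58 normalized counts depending on the library, 8 of the 14 libraries were at or under this floor, which covers counting error only. The summed reads were 2690 in WT K/BxN ST and 2 in WT Control ST, a ratio of their shares of 1159 (95% interval 321 to 9579 for counting error only), and 2035 and 86 in TASTPM, a ratio of 18.9 (95% interval 15.2 to 23.8). The spread between libraries was wider than these intervals: the log2 fold change was 5.14 in WT (SE 2.78, limma adjusted p = 0.718) and 1.05 in TASTPM (SE 2.78, adjusted p = 0.980), values that depend on the pseudocount because libraries of WT Control ST and of TASTPM K/BxN ST are at 0. Rgs18 was the only member that failed the filter on low counts and was kept in the fit. DESeq2 on the recovered reads called it in WT (log2 fold change 9.93, adjusted p = 0.0206), where 1.02% of the genes tested were called (1.92% with no filter on low counts), and edgeR called 0% of genes there. Without the 4 libraries the log2 fold change was 0.59 in WT and -3.58 in TASTPM, with 95% intervals of -3.30 to 4.48 and -7.47 to 0.30.

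The blood cell markers differed in how they ran with Rgs18. WT K/BxN ST replicate 2 held 927 normalized counts of Rgs18 with Ly6g at 0 and the neutrophil calgranulin S100a8 at 143, while Ly6c2 was at 12898 in the same library. TASTPM K/BxN ST replicate 2, with 533 of Rgs18, had S100a8 at 50146. The platelet markers measured were no higher in the 4 libraries than elsewhere. TASTPM Control ST replicates 1 and 3 had Rgs18 at 36.6 and 44.5 with Ly6c2 at 2.09 and 7.27 and P2ry12 at 165494 and 106484. In TASTPM Control ST, border macrophage markers summed to 72.1 to 976 and dendritic cell markers to 141 to 220 normalized counts. In WT Control ST they summed to 67.9 to 144 and to 0.838 to 52.5. Monocyte markers summed to 13237 to 23356 in TASTPM Control ST and to 9009 to 20050 in WT Control ST. The part of each of these cell types in the Rgs18 level was not tested. The genes closest to Rgs18 over the 14 libraries were Emb (0.99), the cell adhesion protein embigin, Emilin2 (1.45), an extracellular matrix glycoprotein, and Ifitm2 (1.55), an interferon-induced membrane protein.

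Rgs19, the vesicle-associated regulator of Gαi, had the narrowest range of the members and split the K/BxN ST libraries within each genotype. WT Control ST had 3088, 3203 and 3331 normalized counts and WT K/BxN ST had 3348, 2803, 2311 and 2387. TASTPM Control ST had 2947, 3001 and 2593 and TASTPM K/BxN ST had 3288, 3206, 2082 and 1992. In both genotypes the K/BxN ST libraries 3 and 4, low in monocyte markers, lay below every Control ST library, whereas TASTPM replicates 1 and 2 and WT replicate 1 lay above all Control ST libraries of their genotype and WT replicate 2 lay below. The share of all genes with this order of libraries was not computed, and with so few libraries such an order can arise by chance. With all libraries the log2 fold change was -0.26 in WT (SE 0.21, limma adjusted p = 0.789) and -0.14 in TASTPM (SE 0.21, adjusted p = 0.966). Without the 4 libraries it was -0.45 in WT (95% interval -0.82 to -0.07, unadjusted p = 0.0228, limma adjusted p = 1) and -0.48 in TASTPM (95% interval -0.85 to -0.11, unadjusted p = 0.0164, adjusted p = 0.996). In that fit of 10 libraries 1.85% of genes in WT and 2.21% in TASTPM had an unadjusted p under 0.05 in the lower direction. Against microglia markers Rgs19 stood at 3.54 to 9.90 per 1000 counts in the 4 libraries and at 1.81 to 3.14 in the other 10, with no overlap. Its normalized counts did overlap, at 2803 to 3348 against 1992 to 3331. The marker sum was lower in the 4 libraries, and the share of all genes that separate on this ratio was not computed. The closest genes were Pomp (0.14), the proteasome maturation protein, Mpc1 (0.15), a subunit of the mitochondrial pyruvate carrier, and Mpc1-ps (0.14), its near copy, whose reads may be shared with Mpc1.

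Rgs14, which joins G protein and Ras signals, was highest in the 4 libraries and had higher levels after K/BxN ST in TASTPM. WT Control ST had 372, 236 and 448 normalized counts and WT K/BxN ST had 796, 777, 88.4 and 362. TASTPM Control ST had 331, 308 and 249.9 and TASTPM K/BxN ST had 859, 669, 589.8 and 357. In TASTPM all K/BxN ST libraries exceeded all Control ST libraries, as for 2.67% of the genes tested, and the log2 fold change was 1.00 (SE 0.61, limma adjusted p = 0.964). In WT the K/BxN ST group held both the highest value of its genotype and the lowest of the series, and the log2 fold change was 0.14 (SE 0.61, adjusted p = 0.965). Without the 4 libraries the differences were 0.64 in TASTPM and -0.92 in WT, with 95% intervals of -0.65 to 1.93 and -2.21 to 0.37. Against microglia markers Rgs14 was at 0.949 to 2.59 per 1000 counts in the 4 libraries and at 0.0755 to 0.544 in the others. The closest genes were Dera (0.33), a deoxyribose-phosphate aldolase, Gstp1 (0.33), a glutathione transferase, and Coro1a (0.33), an actin-binding protein of leukocytes.

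**Figure D2:**
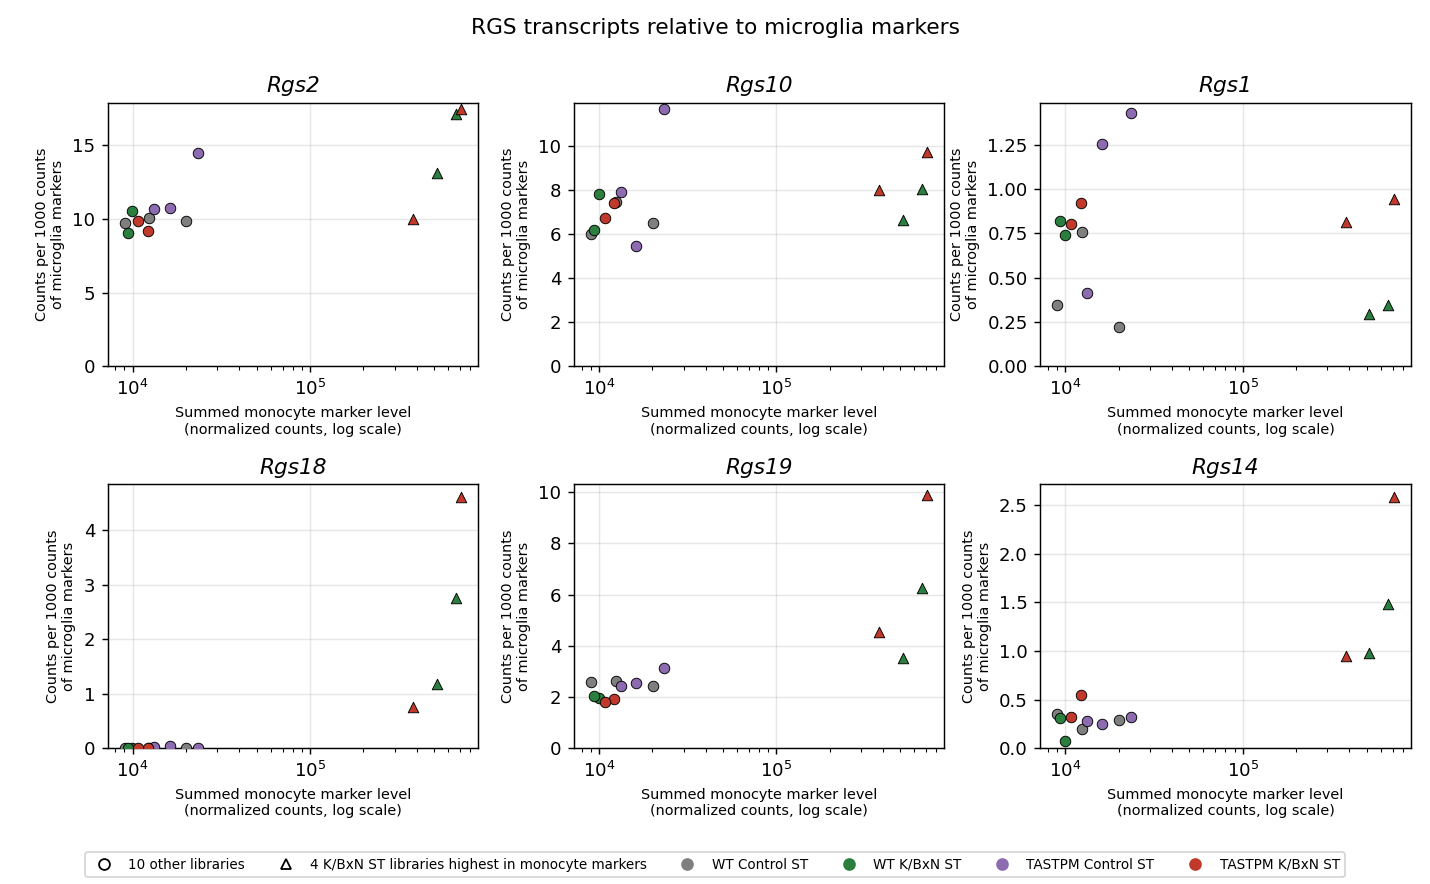
Counts of each RGS gene per 1000 counts of the 10 microglia markers (vertical, linear) against the summed level of 10 monocyte markers (horizontal, log axis) in each library, with colours for groups and triangles for the 4 libraries highest in monocyte markers. Rgs14, Rgs18 and Rgs19 lie above all other libraries in the triangles, while Rgs1 and Rgs10 stay within the range of the other 10 and Rgs2 overlaps it. The marker sum is lower in the triangles, so a gene with steady counts rises on this ratio.

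The make-up of the RGS transcripts therefore differed between the 4 libraries and the rest. As a share of the summed level per kilobase of the 6 genes, Rgs18 made up 3.70 to 12.8% in the 4 libraries and at most 0.279% elsewhere, and Rgs19 made up 14.7 to 23.2% against 9.65 to 14.4%. Rgs14 made up 1.28 to 1.97% against 0.120 to 0.926%. Rgs10 made up 29.0 to 42.3% against 37.6 to 49.4%, and Rgs2 made up 32.1 to 42.6% against 37.7 to 45.2%. Rgs1 was at 0.422 to 1.38% in the 4 libraries and at 0.490 to 2.76% elsewhere. These are descriptions of libraries set apart by their marker levels, and no test was made between them.

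**Figure D3:**
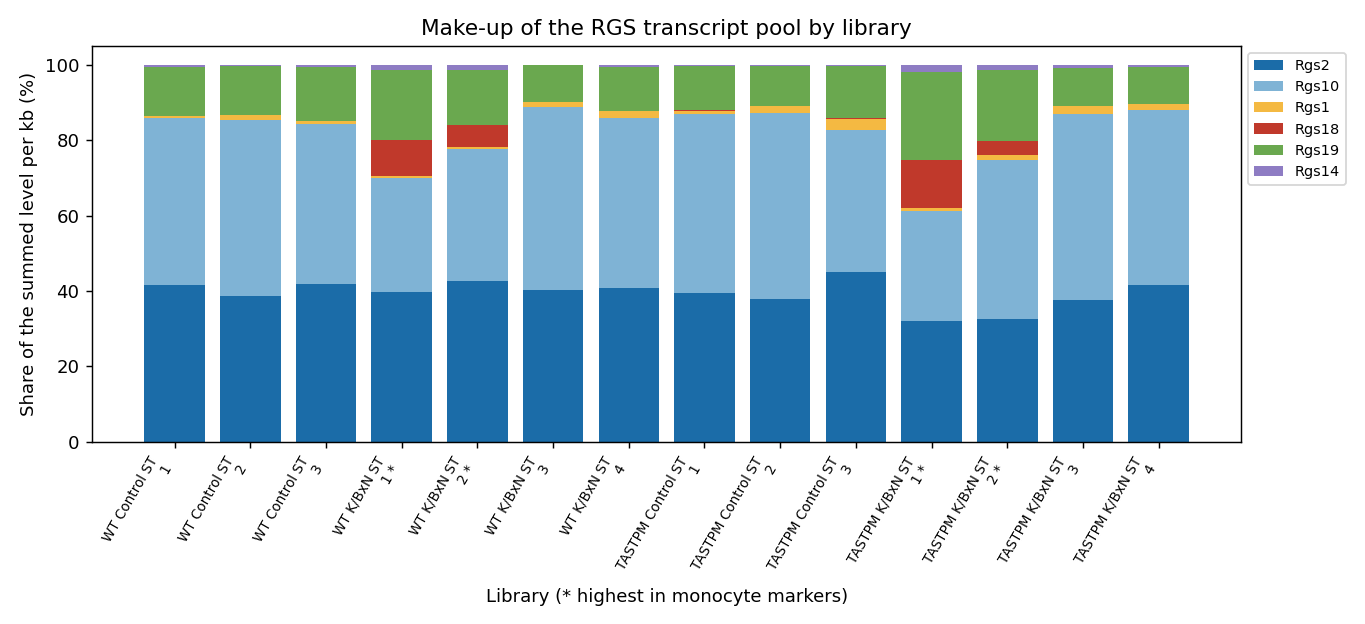
Share in percent of each gene in the summed normalized counts per kilobase of the 6 RGS genes, as stacked bars for each library, with an asterisk for the 4 libraries highest in monocyte markers. Rgs2 and Rgs10 make up most of each bar, and Rgs18 is visible as a share of 3.70 to 12.8% in the 4 marked libraries.

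Across the 6 members no difference between the sera was called by limma or edgeR. With limma on 14 libraries (adjusted p under 0.05 and an absolute log2 fold change over 1) 0 of 6 members were called in WT, where 0.00791% of the 12646 genes were called, and 0 of 6 in TASTPM, where 0% were. At an unadjusted p under 0.05 the counts were 0 in WT, against 7.13% of genes, and 1 in TASTPM (Rgs2), against 4.21%. In WT no member lay below Control ST in all its K/BxN ST libraries, as 3.71% of genes did. edgeR called 0 of 6 in both, as it called 0% of genes in each, and DESeq2 called 1 in WT (Rgs18), where it called 1.02% of genes, and 0 in TASTPM, where it called 0.127%. Over the members the fold changes were negative for 4 of 6 in each genotype (Rgs1, Rgs2, Rgs10 and Rgs19) and positive for Rgs14 and Rgs18, while the median of all genes tested was 0.06 in WT and 0.01 in TASTPM. The intervals were narrow enough to bound Rgs2 and Rgs19, whose differences in WT lay between -0.69 and 0.22 and between -0.71 and 0.20, while in TASTPM that of Rgs2 reached -1.06. The intervals of Rgs1, Rgs10, Rgs14 and Rgs18 reached beyond 1 in size on the log2 scale in both genotypes.

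**Figure D4:**
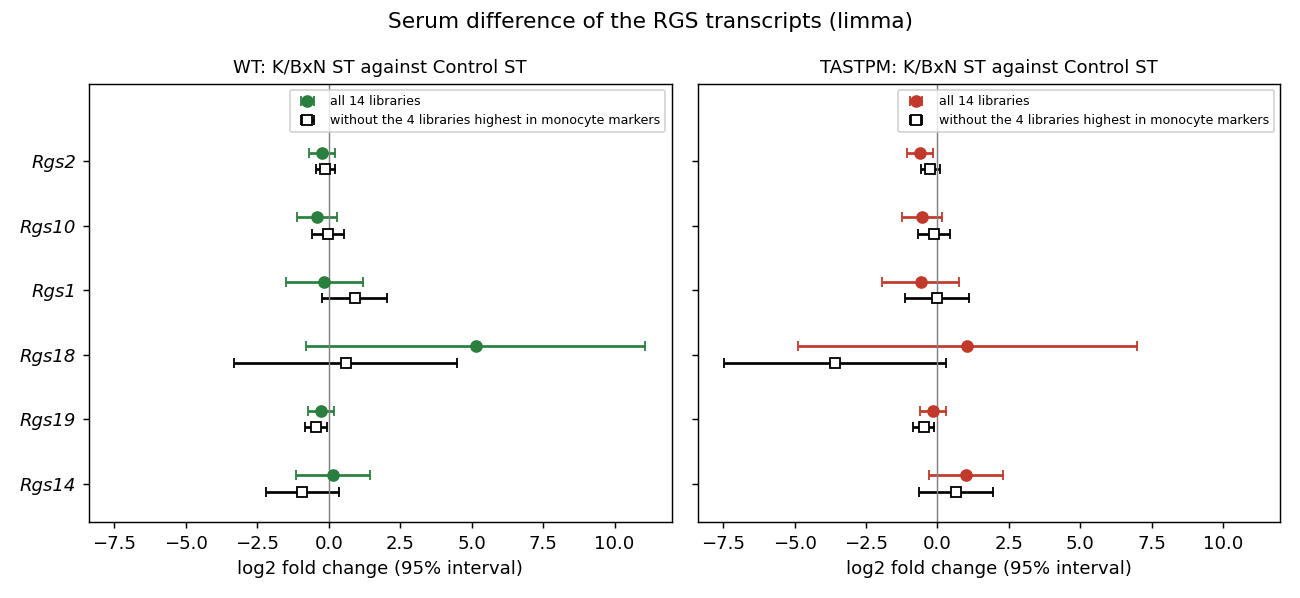
Log2 fold change of K/BxN ST against Control ST for each RGS gene with its 95% interval from limma, in WT (left) and TASTPM (right), with all 14 libraries (filled circles) and without the 4 libraries highest in monocyte markers (open squares). With all libraries only the interval of Rgs2 in TASTPM, -1.06 to -0.15, lies wholly on one side of 0, and without the 4 the intervals of Rgs19 do in both genotypes.

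Whether the serum difference itself differed between WT and TASTPM was tested with an interaction term in the same fit, and 0 of 6 members were called by limma, where 0% of genes were. No member had an unadjusted limma p under 0.05 there, a limit that 3.04% of genes passed. Rgs2 had the smallest unadjusted p, with a difference of log2 fold changes, TASTPM minus WT, of -0.38 (SE 0.30, limma adjusted p = 0.999). The estimate for Rgs18 was -4.09 with a 95% interval of -12.5 to 4.30, and that for Rgs14 was 0.86 (SE 0.86), or 0.17 without WT K/BxN ST replicate 3. The estimates without the 4 libraries were 1.56 for Rgs14 (95% interval -0.26 to 3.38), -0.93 for Rgs1 (95% interval -2.53 to 0.67), -4.17 for Rgs18 and -0.14 for Rgs2, and none had an unadjusted limma p under 0.05. edgeR and DESeq2 also called 0 of 6, against 0% and 0.0949% of genes.

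Between genotypes, no member was called under either serum by limma, edgeR or DESeq2, where DESeq2 called 0.324% of genes under Control ST and 0% under K/BxN ST. With all 14 libraries none had an unadjusted limma p under 0.05, against 5.57% of genes under Control ST and 1.91% under K/BxN ST. Under Control ST, every TASTPM library was above every WT library for Rgs18, as for 4.98% of genes, at 27.8 ± 22.5 against 0.625 ± 1.08 normalized counts (SD, n = 3 each). All 3 WT libraries and TASTPM replicate 2 were under the floor of 3 reads. TASTPM replicate 2 and WT replicate 1 each had 2 reads, so their order (2.22 against 1.87 normalized counts) rests on the library scaling alone. The log2 difference was 3.63 (SE 2.97, limma adjusted p = 0.95). Fitted without the 4 K/BxN ST libraries, whose spread enters the fit, the same difference had a 95% interval of 0.16 to 7.11 (unadjusted p = 0.0419, limma adjusted p = 0.801), and 3.37% of genes then passed that limit in the higher direction. Rgs19 was lower in every TASTPM library than in every WT library under Control ST, as for 4.71% of genes, at 2847 ± 221 against 3208 ± 122 (SD, n = 3 each), a log2 difference of -0.17 (SE 0.23, limma adjusted p = 0.989). Rgs1 was at 1045 ± 474 in TASTPM and 551 ± 334 in WT (SD, n = 3 each), with overlap and a log2 difference of 0.96 (SE 0.67, limma adjusted p = 0.931). Under K/BxN ST all members overlapped between genotypes, where 1.16% of genes were above and 0.672% below in all TASTPM libraries, and the log2 differences ran from -0.46 for Rgs18 to 0.65 for Rgs14, with Rgs2 at -0.37 (SE 0.20, unadjusted p = 0.0779, limma adjusted p = 1.00) and Rgs1 at 0.53 (SE 0.58). With the 4 libraries left out they were 1.35 for Rgs14 (95% interval -0.06 to 2.76, unadjusted p = 0.0587, limma adjusted p = 1), -0.14 for Rgs2 and 0.04 for Rgs1. The genotype comparisons share their libraries with the serum comparisons.

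Among the other RGS genes, 3 of 15 had values and 2 were tested. Rgs3, a large RGS protein acting on Gαi and Gαq, stood at 368 to 792 normalized counts, with log2 fold changes of -0.53 in WT (SE 0.25, limma adjusted p = 0.698) and -0.47 in TASTPM (SE 0.25, adjusted p = 0.964). In TASTPM, Rgs3 was at 649.7, 536 and 727 in Control ST and at 457, 437, 479 and 457 in K/BxN ST, so every K/BxN ST library lay below every Control ST library, as for 2.74% of genes. Its levels in the 4 libraries high in monocyte markers, 370.3 to 487, were within the range of the other 10. Rgs12 was at 0 to 125 normalized counts, with reads in 10 libraries, and its log2 fold changes were 3.95 in WT (SE 1.89, unadjusted p = 0.0548, limma adjusted p = 0.698) and 0.44 in TASTPM (SE 1.89, adjusted p = 0.989), with overlap in both. The median of Rgs3 and Rgs12 was 1.71 in WT and -0.01 in TASTPM (1.77 and -0.54 without the 4 libraries). Rgs11 was at 0 to 26.0 normalized counts, with reads in 4 libraries.

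The G proteins that RGS proteins act on also included genes that ran with the 4 libraries. Of 13 genes for Gα subunits 12 had values and 9 were tested, and 0 were called by limma in either genotype, with 5 positive and 4 negative differences in each and a median of 0.03 in WT and 0.00 in TASTPM (-0.07 and 0.11 without the 4 libraries). Gna15, a Gα of the Gq class found in blood cells, was at 2745 to 4876 normalized counts in the 4 libraries and at 6242 to 8420.2 in the others, with log2 fold changes of -0.46 in WT and -0.41 in TASTPM (SE 0.32 each). Of 15 genes for Gβ and Gγ subunits 10 were tested, with 0 called and medians of 0.29 in WT and 0.24 in TASTPM (0.04 and -0.05 without the 4 libraries). Gnb1 and Gnb2 were higher in the 4 libraries (3162 to 3564 and 1373 to 1889.6 normalized counts) than in any other (1851 to 2377 and 613 to 1043). Their log2 fold changes were 0.42 (SE 0.25) and 0.52 (SE 0.35) in WT and 0.27 (SE 0.25) and 0.63 (SE 0.35) in TASTPM. The share of all genes that separate the 4 libraries from the others, as Gna15, Gnb1 and Gnb2 do, was not computed.

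Receptors coupled to Gαi had mostly negative differences. Of 19 such receptors 14 were tested, 0 were called by limma in either genotype, and 12 of 14 in WT and 11 of 14 in TASTPM had negative log2 fold changes, with a median of -0.45 in each against 0.06 and 0.01 over all genes. The 19 receptors summed to 159045 to 351613 normalized counts in the 4 libraries high in monocyte markers and to 369868 to 576353 in the other 10, with no overlap. The summed microglia markers were lower in the 4 as well, and the share of all genes that separate in this way was not computed. Fitted without the 4, the median was -0.20 in WT, with 11 of 14 negative, and 0.09 in TASTPM, with 6 of 14 negative. At an unadjusted p under 0.05, Hcar2 was among those lower in WT, where 7.13% of all genes passed, and in TASTPM 1 was higher (Ccr1) and 1 lower (Adora3), 2 of 14 in a comparison where 4.21% of all genes passed that limit. Adora3, an adenosine receptor, was at 1822, 1567 and 1685 in TASTPM Control ST and at 459.6, 801, 1326 and 1258 in TASTPM K/BxN ST, without overlap, as for 2.74% of genes in this direction (log2 fold change -0.93, SE 0.33, limma adjusted p = 0.964). Its 2 lowest K/BxN ST values belonged to the libraries high in monocyte markers. Of 7 receptors coupled to Gαq, 4 were tested and 0 called, with medians of -0.11 in WT and -0.43 in TASTPM (-0.17 and -0.08 without the 4 libraries). The nucleotide receptor P2ry6 was at -0.28 in WT and -0.44 in TASTPM (SE 0.28 each), and the leukotriene receptor Cysltr1 at -0.46 and -0.36 (SE 0.25 each).

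Receptor kinases and arrestins, which end receptor signalling, and the effectors below the G proteins gave no call either. All 7 kinase and arrestin genes were tested, with medians of 0.23 in WT and -0.15 in TASTPM (-0.14 and -0.84 without the 4 libraries), and the receptor kinase Grk5 was at 139 to 472 normalized counts in the 4 libraries and at 0 to 80.7 in the others. Its log2 fold changes were 2.48 in WT and 1.74 in TASTPM (SE 2.03 each), and those of Grk4, at 0 to 84.4 in all libraries, were 0.33 and -1.88 (SE 1.19 each). Of 18 effector genes 16 were tested, with medians of 0.22 in WT and 0.18 in TASTPM (0.14 and 0.43 without the 4 libraries). Pik3r6, the adaptor of the phosphoinositide 3-kinase that Gβγ activates, had log2 fold changes of 0.59 in WT (SE 0.24, unadjusted p = 0.0238, limma adjusted p = 0.668) and -0.36 in TASTPM (SE 0.24, adjusted p = 0.964). For Pik3r6 all WT K/BxN ST libraries exceeded all those of WT Control ST, as for 3.67% of genes, and its level in the 4 libraries, 844 to 1279.9, was within the range of the others. Plcb4, a phospholipase C activated by Gαq, had 1.24 in WT and 2.93 in TASTPM (SE 1.23 each, limma adjusted p = 0.964 in TASTPM). Of the 5 other modulators, all tested with 0 called, Gpsm2, which carries GoLoco motifs as Rgs14 does, was at 0 in all 3 WT Control ST libraries and at 489.6, 156, 72.9 and 73.1 in WT K/BxN ST, without overlap as for 3.67% of genes (limma adjusted p = 0.439). In TASTPM the groups overlapped for Gpsm2, with a log2 fold change of 2.08 (SE 1.84, limma adjusted p = 0.964), and Gpsm2 was at 127 to 489.6 in the 4 libraries and at 0 to 73.1 in the others. The medians of these 5 were -0.28 in WT and 0.06 in TASTPM (-0.33 and 0.01 without the 4 libraries), and Ric8a, a chaperone and exchange factor of Gα, had -0.39 in WT and 0.35 in TASTPM (SE 0.24 each). How many of all genes separate the 4 libraries from the others, as Grk5 and Gpsm2 do, was not computed.

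Rgs1 and Rgs2 are also known as genes induced early after cell stimulation, so immediate early genes were read beside them. The 13 such genes measured of 14, all tested, summed to 14903 to 25380 normalized counts in the 4 libraries and to 10866 to 22364 in the others, with 0 called by limma in either genotype. Their median log2 fold change was 1.30 in WT and 0.72 in TASTPM, and 0.06 and 0.07 without the 4 libraries. At an unadjusted p under 0.05 Egr1 was higher in WT (4.14, SE 1.69, limma adjusted p = 0.684), and Fos and Junb were higher in TASTPM (Junb 0.72, SE 0.26, adjusted p = 0.964), which is 1 of 13 and 2 of 13 where 7.13% and 4.21% of all genes passed. The part of this response in the levels of Rgs1 and Rgs2 was not tested.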

How the data were processed

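RNA was extracted by the authors from sorted microglia, cDNA was amplified with SMART-Seq v4, and libraries were sequenced as paired-end reads. Per the labels, the submitters' processing notes name FastQC 0.11.9, HISAT2 2.1, featureCounts 1.5.2, Picard and DESeq2, with GRCm39. The deposited values are a normalized signal, each count divided by 1 factor per library, and 100% of values were whole multiples of the value of 1 read (within 0.01), so reads were recovered. Of 14336 rows, 7 repeated an identifier and were left out. Columns were assigned to groups by the group named above them. Replicate numbers of TASTPM K/BxN ST are those of the labels, and the others follow the order of the deposited columns.

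Genes reaching 10 reads in 7 or more of the 14 libraries, and Rgs18, which failed this filter, were tested (12646 in all) with limma 3.58.1 in R 4.3.3 on log2(normalized count + 1), with a variance trend and 1 fit to 4 groups. Adjusted p-values are Benjamini-Hochberg over these genes, and a call needed one below 0.05 and an absolute log2 fold change above 1. edgeR 4.0.16 and DESeq2 1.42.0 were run on the recovered reads as alternatives. Scripts were tested on simulated data. Other alternatives were TMM factors, library totals, pseudocounts of 0.5 and 5, no filter, fits of the compared groups alone, and the omission of each library or of the 4 libraries highest in monocyte markers. The medians of the gene lists without the 4 libraries were added after seeing the data. Members, gene lists and tests were chosen with earlier results of these data known. Genes named from a list are those with the smallest unadjusted limma p in it for each serum comparison, and all other Rgs genes with values. Hcar2, Ccr1, Fos and members of marker lists were named after their values were seen. For each member the 3 genes with the smallest mean absolute difference of centred log2 values over 14 libraries were named. Exon lengths and positions are from GENCODE M39, which is newer than the annotation behind the counts. Intervals on reads cover counting error only, since the reads carry no molecular tags. The values of 1 receptor that the naming rule selects, and some details of the transgenic line, are not reported here.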

Additional observations from a re-analysis of the deposited data

How the results depend on the processing

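No paired analysis was possible because the groups share no replicate numbers. Among the 264 values of members over the settings that kept all libraries, 259 kept their direction and side of the threshold. DESeq2 called 1 member in WT, Rgs18 (9.93), with and without the filter on low counts (adjusted p = 0.0206 and 0.0118), and over the settings of this difference the adjusted p ran from 0.0118 to 1.00. The Rgs1 difference in WT turned from -0.16 to 0.041 with edgeR, 0.030 with DESeq2 and 0.029 with DESeq2 and no filter. Without the 4 libraries highest in monocyte markers, 26 of 30 values kept their direction, and those of Rgs1 in WT (0.91), Rgs14 in WT (-0.92), Rgs18 in TASTPM (-3.58) and Rgs19 in the interaction (-0.031) turned. For these turns the cause was not tested.

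Leaving out each library in turn kept the direction of 391 of 420 values and gave 0 calls in all 5 comparisons. The values that turned ranged, in WT, from -0.55 to 0.30 for Rgs1 and from -0.22 to 0.84 for Rgs14, and in TASTPM from -0.75 to 2.78 for Rgs18. In the interaction they ranged from -0.43 to 0.14 for Rgs10 and from -0.0047 to 0.24 for Rgs19. Between genotypes under Control ST they ranged from -0.073 to 0.10 for Rgs2 and from -0.19 to 0.31 for Rgs10. Under K/BxN ST they ranged from -0.30 to 0.16 for Rgs10, from -0.042 to 1.01 for Rgs14, from -2.25 to 1.27 for Rgs18 and from -0.18 to 0.062 for Rgs19. Of the 30 differences, 19 kept their direction throughout, and 13 of these moved by over 1.5 times in at least 1 such fit. Those between the sera were Rgs10 in WT (-0.60 without WT K/BxN ST replicate 3 to -0.24 without replicate 1), Rgs1 in TASTPM (-1.06 without Control ST replicate 1 to -0.26 without K/BxN ST replicate 1), Rgs10 in TASTPM (-0.85 without Control ST replicate 3 to -0.27 without K/BxN ST replicate 1) and Rgs19 in TASTPM (-0.26 without K/BxN ST replicate 1 to -0.021 without replicate 4). In the interaction they were Rgs1 (-0.90 to -0.045), Rgs2 (-0.52 to -0.21), Rgs14 (0.17 to 1.22) and Rgs18 (-5.89 to -2.36). Under Control ST they were Rgs1 (0.57 to 1.43), Rgs14 (-0.47 to -0.0095) and Rgs19 (-0.21 to -0.11), and under K/BxN ST Rgs1 (0.12 to 0.91) and Rgs2 (-0.51 to -0.21). At 3 or 4 libraries a group, serum differences of Rgs1, Rgs10, Rgs14 and Rgs18 under 1 on the log2 scale could not be bounded.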
